A study of Mus musculus with 15 samples.

Results

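The genes described are 10 genes of epithelial structure, 4 keratins (Krt7, Krt8, Krt18 and Krt19), 4 claudins (Cldn3, Cldn4, Cldn6 and Cldn7), E-cadherin (Cdh1) and the epithelial cell adhesion molecule (Epcam), followed across 5 mouse embryonic stem (ES) cell lines. All probe sets that the array's annotation gives to these symbols were taken, 16 of the 45101 on the array, standing for 10 of 18193 genes. The genes themselves had been picked because their measured values differed between these lines, so their differences are given as a description. Where the 10 are counted by the rule used for all genes, the count describes the choice and is no test of it.

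Keratins are intermediate filament proteins that assemble only as pairs of a type II chain (Krt7, Krt8) with a type I chain (Krt18, Krt19), and these chains mark simple, single-layered epithelia. Claudins span the membrane at tight junctions and seal the space between neighbouring epithelial cells, while Cdh1 holds the cells together at adherens junctions through the catenins. In the early mouse embryo the simple keratins are known from trophectoderm and extraembryonic endoderm, and Cdh1 and Epcam are present on ES cells themselves.

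Total RNA of each line was hybridised to 3 Affymetrix mouse arrays, 15 in all, and the question posed by the series was how ES cells from fertilisation and from parthenogenesis compare. NmB6D2 is a fertilised line from naturally mated C57BL6 females and DBA2 males. R1 is a fertilised line from a cross of 129S1/SvImJ with 129X1/SvJ, and the series text says that the second normal line was purchased. OpB6D2 is parthenogenetic, from activated oocytes that B6D2F1 females (C57BL6 mother, DBA2 father) had ovulated naturally. FpB6D2 and FpB6CBA are also parthenogenetic, from oocytes grown in cultured preantral follicles, of B6D2F1 females for FpB6D2 and of B6CBAF1 females (C57BL6 mother, CBA/ca father) for FpB6CBA. The follicles came from prepubertal females, and no line is described as carrying a transgene or receiving a drug. Culture conditions, feeder cells and passage are not given in the sources used here. Each line is a single derivation, so line, strain and mode of origin cannot be told apart in a comparison of 2 lines. The labels do not say whether the 3 arrays of a line came from separate cultures, and p-values therefore measure only the spread between arrays, which may be technical.

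Values are on a log2 scale, on which a difference of 1 is 2-fold, and they can be compared between arrays for 1 probe set but not between probe sets. A gene with several probe sets is represented by the one with the highest mean, and 12813 genes were tested, those with 3 or more arrays at or above 3.86, which is the median value of the whole table. All 10 genes lay above that value on all 15 arrays. A gene is called different between 2 lines at an adjusted p under 0.05 (limma, Benjamini-Hochberg over all genes tested) and at least a 2-fold difference. Correlations of whole arrays ran from 0.993 to 0.998 within a line and from 0.910 to 0.978 between lines. The 10 pluripotent cell markers that were listed (among them Pou5f1, Nanog and Sox2) all lay above 3.86 in each line, with a mean of 10.6 in FpB6CBA and 10.8 to 11.1 in the other lines. Hybridisation control probe sets averaged 10.1 in FpB6D2 and 10.2 in FpB6CBA against 9.49 to 9.57 in the other lines, and on single arrays they ran from 9.71 to 10.4 in FpB6CBA. The 3′ minus 5′ difference of the actin probe sets, a sign of RNA quality, was 0.62 to 0.65 in FpB6D2 and 0.66 to 0.76 in FpB6CBA against 0.48 to 0.55 in the other lines. By line mean both measures set the lines from follicle-grown oocytes apart. On single arrays only the actin difference did so, since the hybridisation controls reached 9.73 in NmB6D2 and there overlapped FpB6CBA. The part of both measures in comparisons with the lines from follicle-grown oocytes was not tested. In RNA from whole cultures, fewer cells that express a gene and less RNA of it per cell cannot be told apart.

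The start regions of these genes are shown because Zeb1 and Snai1, repressors measured on the same arrays, are known to bind the E-box CACCTG. RefSeq start-site windows on GRCm38.p6, from 250 bases before to 50 after the start, were found for 8 of the 10 genes, with 9 windows in all. The letters CACCTG on either strand occurred in 8 of the 9 windows, and in 6640 of all 32851 windows of that length (20.2%). Krt7, Krt8, Krt18 and Cldn3 held 1 such match, and Cldn4, Cldn6, Epcam and the second of the Cldn7 windows held 2 each. Krt8 and Krt18 are printed as the pair of adjacent keratin genes, Cldn4 and Cldn7 as claudins with 2 matches in 1 window, and Epcam as the membrane adhesion gene. Each is written 5′ to 3′ on the gene's strand, and capitals mark CACCTG or its reverse complement CAGGTG.
Krt8, chr15:102004293-102004592, minus strand: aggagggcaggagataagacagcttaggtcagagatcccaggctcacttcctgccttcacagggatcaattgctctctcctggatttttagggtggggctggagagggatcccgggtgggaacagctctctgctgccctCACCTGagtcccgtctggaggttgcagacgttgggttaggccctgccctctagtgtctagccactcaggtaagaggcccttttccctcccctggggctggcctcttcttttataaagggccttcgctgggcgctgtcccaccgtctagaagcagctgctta
Krt18, chr15:102027966-102028265, plus strand: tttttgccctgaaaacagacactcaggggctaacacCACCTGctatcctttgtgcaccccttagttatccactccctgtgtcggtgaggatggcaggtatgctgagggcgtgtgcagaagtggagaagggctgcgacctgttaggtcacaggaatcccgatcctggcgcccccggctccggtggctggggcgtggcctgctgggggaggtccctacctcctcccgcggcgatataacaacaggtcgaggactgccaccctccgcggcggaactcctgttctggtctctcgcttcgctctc
Cldn4, chr5:134946885-134947184, minus strand: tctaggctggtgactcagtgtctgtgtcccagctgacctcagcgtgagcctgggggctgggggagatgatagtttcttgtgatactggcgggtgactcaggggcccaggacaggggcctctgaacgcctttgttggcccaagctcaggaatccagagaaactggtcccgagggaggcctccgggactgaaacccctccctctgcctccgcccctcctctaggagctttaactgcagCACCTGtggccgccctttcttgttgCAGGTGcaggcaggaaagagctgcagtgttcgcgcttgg
Cldn7, chr11:69965171-69965470, plus strand: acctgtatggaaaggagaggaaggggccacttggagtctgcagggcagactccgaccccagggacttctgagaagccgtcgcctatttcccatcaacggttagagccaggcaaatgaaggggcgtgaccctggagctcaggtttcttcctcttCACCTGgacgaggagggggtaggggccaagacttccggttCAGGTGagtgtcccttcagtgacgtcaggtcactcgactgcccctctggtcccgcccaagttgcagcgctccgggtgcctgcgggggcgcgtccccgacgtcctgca
Epcam, chr17:87635729-87636028, plus strand: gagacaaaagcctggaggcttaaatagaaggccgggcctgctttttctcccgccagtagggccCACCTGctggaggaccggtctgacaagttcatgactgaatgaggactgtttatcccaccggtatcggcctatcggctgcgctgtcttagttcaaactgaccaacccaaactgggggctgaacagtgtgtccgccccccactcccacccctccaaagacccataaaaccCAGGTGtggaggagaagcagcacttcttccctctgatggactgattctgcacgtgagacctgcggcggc
The Cldn4 matches begin 14 bases before and 11 bases after the start, those of the Cldn7 window 97 and 57 bases before it, and those of Epcam 187 and 19 bases before it. The match of Krt8 begins 111 bases and that of Krt18 214 bases before the start. The GC box GGGCGG was found in 6 of the 9 windows and in 35.7% of all windows. The Grainyhead motif AACCGGTT was in 0 of the 9 and in 0.146% of all, and its core AACNNGTT, which contains that motif, in 0 and 4.2%. The AP-2 motif GCCNNNGGC was in 3 and 16.6%, the TEAD motif GGAATG in 2 and 14.7%, TATAAA in 1 and 13.6%, the AP-1 motif TGANTCA in 1 and 7.81%, and CACCC in 8 and 57.5%, all on both strands. G and C made up 52.0% to 66.3% of the windows of these genes, against a median of 52.7% over all windows, and the matches are a description of letters, not of binding.

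The 10 genes fell into 3 groups by the place of R1 among the lines. Krt8, Krt18 and Krt19 were high in NmB6D2, R1 and FpB6CBA. Krt7, Cldn3, Cldn4 and Cldn7 were high in NmB6D2 and FpB6CBA and low in R1. Cldn6, Cdh1 and Epcam had R1 between the extremes but differed in their course. The largest gap between neighbouring lines lay between R1 and OpB6D2 for Cldn6 (1.94) and between R1 and FpB6D2 for Epcam (1.23). OpB6D2 and FpB6D2, the parthenogenetic lines from B6D2F1 females, were below NmB6D2 and FpB6CBA for each of the 10 genes. The range between the highest and the lowest line mean was widest for Krt19 (22.5-fold) and Krt7 (16.9-fold) and narrowest for Cdh1 (3.11-fold).

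**Figure D1:**
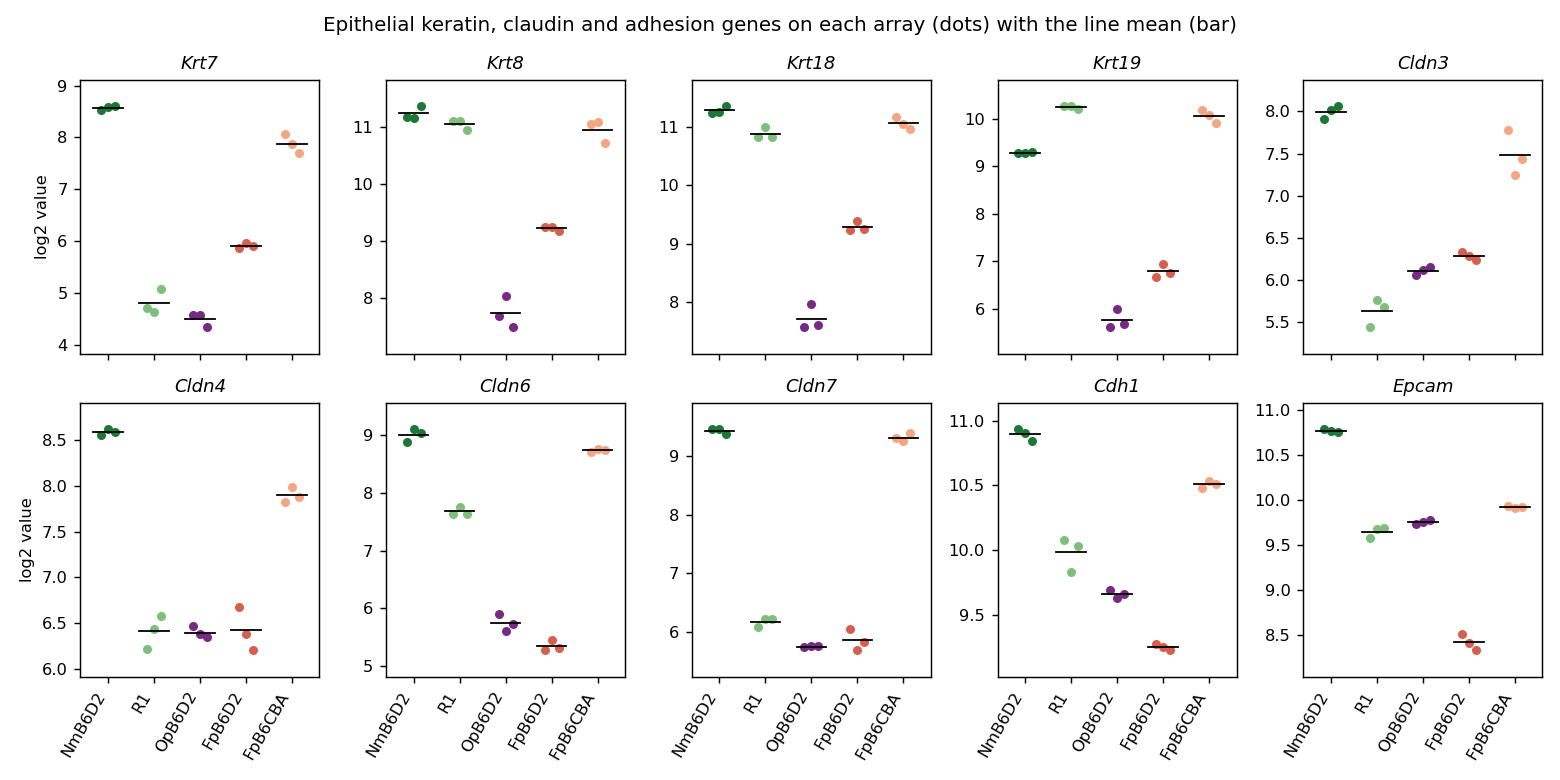
The log2 value (vertical axis, a separate scale in each panel) of each of the 10 genes on each of the 15 arrays (dots, 3 per line) with the line mean (bar). NmB6D2 and FpB6CBA were the highest lines in all panels but those of Krt8 and Krt19, though for Epcam FpB6CBA was nearer to OpB6D2 and R1 than to NmB6D2, and R1 was among the high lines for Krt8, Krt18 and Krt19 but near the lowest lines for Krt7, Cldn3, Cldn4 and Cldn7.

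Krt8, the type II keratin of simple epithelia, was measured at 11.18, 11.17 and 11.36 in NmB6D2. It was at 11.10, 11.11 and 10.95 in R1 and at 11.05, 11.08 and 10.72 in FpB6CBA. FpB6D2 gave 9.25, 9.24 and 9.18, and OpB6D2 gave 7.68, 8.03 and 7.49. R1 and FpB6CBA overlapped, FpB6D2 lay in between, and OpB6D2 was lowest with no overlap. OpB6D2 was 11.4-fold below NmB6D2 (log2 difference -3.51 ± 0.12 SE, 3 arrays a line), FpB6D2 4.04-fold below it, and R1 differed from it by only -0.19.

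Krt18, the type I partner of Krt8, followed the same order from line to line apart from R1 and FpB6CBA, whose arrays overlapped for both genes. Its values were 11.23, 11.25 and 11.35 in NmB6D2, 11.16, 11.05 and 10.96 in FpB6CBA and 10.83, 10.99 and 10.82 in R1. FpB6D2 stood at 9.23, 9.38 and 9.26 and OpB6D2 at 7.58, 7.97 and 7.61. OpB6D2 was thus 11.8-fold below NmB6D2 (-3.56 ± 0.10 SE) and FpB6D2 3.97-fold. Over the 15 arrays Krt8 and Krt18 correlated at 0.996, a description in which the 3 arrays of a line are not independent. The second array of OpB6D2, whose title carries the number 4, was the highest of that line for Krt8, Krt18 and Krt19.

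Krt19, the smallest type I keratin, differed from Krt8 and Krt18 in that NmB6D2 was not its highest line. It reached 10.27, 10.27 and 10.21 in R1 and 10.19, 10.08 and 9.92 in FpB6CBA, against 9.29, 9.29 and 9.31 in NmB6D2. It was at 6.67, 6.94 and 6.74 in FpB6D2 and at 5.61, 5.99 and 5.67 in OpB6D2. No line overlapped another. R1 was 1.94-fold above NmB6D2, just under the 2-fold minimum, and OpB6D2 11.6-fold below NmB6D2 (-3.54 ± 0.10 SE). FpB6CBA was 9.70-fold above FpB6D2, the parthenogenetic line from the same kind of oocyte culture.

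Krt7, a type II keratin of simple glandular epithelia, set R1 apart from the other 3 keratins. Its values were 8.53, 8.58 and 8.60 in NmB6D2 and 8.07, 7.87 and 7.71 in FpB6CBA. They were 5.86, 5.96 and 5.90 in FpB6D2, 4.70, 4.63 and 5.07 in R1 and 4.57, 4.58 and 4.34 in OpB6D2. R1 and OpB6D2 did not overlap but were only 0.31 apart, with all 6 arrays above 3.86. R1 was 13.7-fold below NmB6D2 (-3.77 ± 0.11 SE) and OpB6D2 16.9-fold (-4.08 ± 0.11 SE). Krt7 correlated with Cldn3 (0.958) more closely than with Krt8 (0.639) over the 15 arrays.

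The claudins Cldn3 and Cldn4, which lie next to each other on chromosome 5 and are receptors of a bacterial enterotoxin, were both high in NmB6D2 and FpB6CBA. Cldn3 was at 7.91, 8.02 and 8.06 in NmB6D2 and 7.78, 7.24 and 7.43 in FpB6CBA. It was at 6.33, 6.28 and 6.24 in FpB6D2, 6.06, 6.12 and 6.15 in OpB6D2 and 5.44, 5.77 and 5.69 in R1. No line overlapped another, and R1 was the lowest, 5.14-fold below NmB6D2. Cldn4 stood at 8.56, 8.62 and 8.59 in NmB6D2 and at 7.82, 7.99 and 7.88 in FpB6CBA. Its other 3 lines could not be ordered, with 6.22, 6.43 and 6.57 in R1, 6.46, 6.38 and 6.34 in OpB6D2 and 6.67, 6.38 and 6.20 in FpB6D2. All 3 were between 4.50-fold and 4.57-fold below NmB6D2.

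Cldn7, a claudin known to bind Epcam, had the sharpest division into high and low lines. It was at 9.46, 9.46 and 9.38 in NmB6D2 and at 9.30, 9.26 and 9.39 in FpB6CBA, and these lines overlapped. R1 gave 6.08, 6.22 and 6.23, FpB6D2 6.05, 5.69 and 5.82 and OpB6D2 5.73, 5.75 and 5.75. The gap between the high and the low lines was 3.14, while R1 lay 0.32 above FpB6D2, and FpB6D2 and OpB6D2 overlapped. Cldn7 was 12.9-fold lower in OpB6D2, 11.9-fold lower in FpB6D2 and 9.55-fold lower in R1 than in NmB6D2.

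Cldn6, a claudin of embryonic epithelia that is also known from pluripotent cells, placed R1 in between. Its values were 8.89, 9.11 and 9.05 in NmB6D2, 8.71, 8.77 and 8.74 in FpB6CBA and 7.64, 7.75 and 7.64 in R1. OpB6D2 gave 5.90, 5.61 and 5.72 and FpB6D2 5.27, 5.44 and 5.30. No line overlapped another, and here FpB6D2 and not OpB6D2 was lowest. FpB6D2 was 12.8-fold and R1 2.52-fold below NmB6D2 (-3.68 ± 0.08 SE and -1.34 ± 0.08 SE).

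Cdh1, the adhesion receptor of adherens junctions, varied least. It was at 10.93, 10.90 and 10.84 in NmB6D2, 10.48, 10.54 and 10.51 in FpB6CBA and 10.08, 9.83 and 10.03 in R1. It was at 9.70, 9.63 and 9.66 in OpB6D2 and at 9.28, 9.26 and 9.23 in FpB6D2. The 5 lines did not overlap, and neighbours in the order were 0.32 to 0.53 apart. FpB6D2 was 3.11-fold and OpB6D2 2.34-fold below NmB6D2, and R1, at 1.88-fold, missed the 2-fold minimum.

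Epcam, a membrane glycoprotein of epithelial and ES cells, had FpB6D2 as its low line. Its values were 10.79, 10.77 and 10.76 in NmB6D2, 9.93, 9.91 and 9.93 in FpB6CBA and 9.74, 9.76 and 9.78 in OpB6D2. R1 gave 9.58, 9.68 and 9.70, and FpB6D2 8.52, 8.41 and 8.33. FpB6CBA lay 0.17 above OpB6D2, and OpB6D2 0.11 above R1, without overlap. FpB6D2 was 5.11-fold below NmB6D2, and OpB6D2 2.02-fold, a value at the minimum for a call. Epcam correlated with Cdh1 at 0.904 over the 15 arrays and with Krt8 at 0.455.

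Genes with several probe sets gave like results for Krt8 and Cldn3 and unlike results for Epcam. The 3 probe sets of Krt8 put OpB6D2 9.72-fold to 11.4-fold below NmB6D2, and R1 within 0.19 of NmB6D2. The 4 probe sets of Cldn3 put R1 5.14-fold to 10.8-fold below NmB6D2. Of the 4, the probe set that represents Cldn3 gave the smallest differences from NmB6D2 in R1, OpB6D2 and FpB6D2. For Epcam the probe set that represents it gave -1.02 for OpB6D2 and -2.35 for FpB6D2 against NmB6D2, while its other probe set, which is marked as one that may cross-hybridise, gave -0.42 and -0.54. The latter also gave -0.12 between FpB6D2 and OpB6D2, with overlapping arrays, where the former gave -1.34. With the mean of both, Epcam was -0.72 for OpB6D2 against NmB6D2, -0.84 for R1 against NmB6D2 and -0.73 for FpB6D2 against OpB6D2, and none of these was called.

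**Figure D2:**
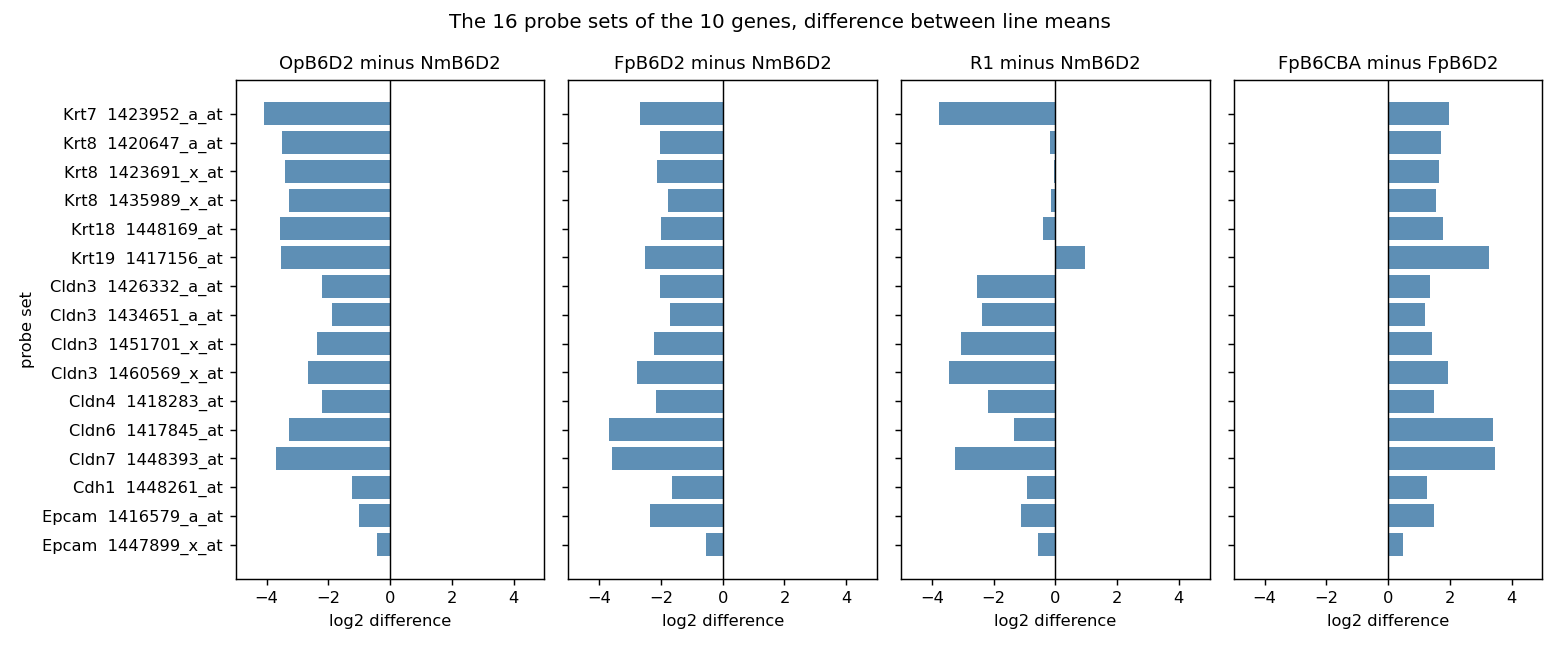
The difference between line means (horizontal axis, log2) in 4 comparisons for each of the 16 probe sets (vertical axis). Bars of 1 gene agree in direction in all 4 panels, and the bars of Epcam differ most in size, -2.35 against -0.54 for FpB6D2 minus NmB6D2.

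Counted by the same rule as the rest of the array, 10 of the 10 genes were lower in OpB6D2 than in NmB6D2 and 0 were higher. Over all genes tested 2.6% were called lower and 3.24% higher in that comparison. FpB6D2 against NmB6D2 also had 10 lower and 0 higher, where 5.53% of all genes were called lower and 5.22% higher. R1 against NmB6D2 had 6 lower (Krt7, the 4 claudins and Epcam) and 0 higher, against 5.49% and 7.39% of all genes. FpB6CBA against NmB6D2 had 0 in either direction, against 1.63% lower and 2.57% higher over all genes, and all 10 differed by less than 2-fold, 9 of them lower and Krt19 higher. These 4 comparisons share the NmB6D2 arrays, and the genes were chosen on them, so the counts describe the choice. The median log2 difference of the 10 genes was -3.39 in OpB6D2, -2.26 in FpB6D2, -1.23 in R1 and -0.34 in FpB6CBA, while the medians of all genes tested lay between -0.04 and 0.02.

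**Figure D3:**
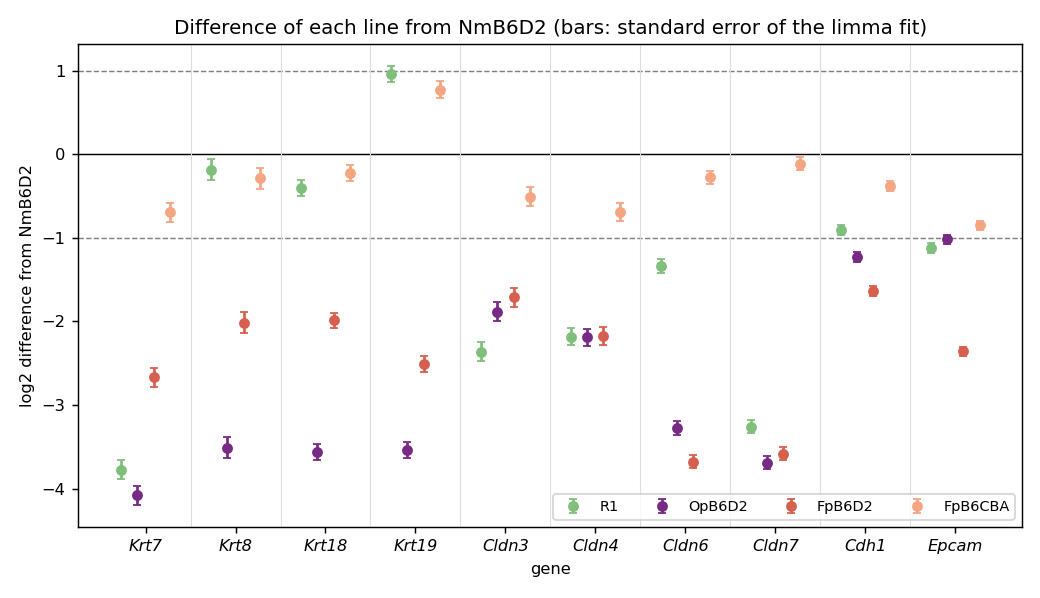
The log2 difference of R1, OpB6D2, FpB6D2 and FpB6CBA from NmB6D2 (vertical axis) for each of the 10 genes (horizontal axis), with the standard error of the limma fit as bars and dashed lines at 2-fold. FpB6CBA lay within 2-fold of NmB6D2 for all 10 genes, and R1 was above NmB6D2 only for Krt19.

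Between the parthenogenetic lines of B6D2F1 females, the keratins and Epcam differed in opposite directions. All 4 keratins were higher in FpB6D2 than in OpB6D2, by 2.66-fold for Krt7, 2.81-fold for Krt8, 2.97-fold for Krt18 and 2.04-fold for Krt19. Epcam was 2.53-fold lower, but its other probe set gave only -0.12, with overlapping arrays, and the mean of both gave -0.73 and no call. Cdh1 and Cldn6 were lower by less than 2-fold (-0.41 and -0.40) and the other claudins differed by at most 0.17. That made 4 genes higher and 1 lower, against 1.31% and 2.44% of all genes tested. Krt19 was under 2-fold, at 0.95 to 0.99 log2 units, when the first or last OpB6D2 array or the second FpB6D2 array was left out. Between the lines from follicle-grown oocytes, all 10 genes were higher in FpB6CBA than in FpB6D2 and 0 lower, against 6.03% and 5.14% of all genes. The differences ran from 2.30-fold for Cldn3 and 2.38-fold for Cdh1 to 10.6-fold for Cldn6 and 11.1-fold for Cldn7.

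Mode of origin as such was compared over the line means, with 3 parthenogenetic lines against 2 fertilised ones. All 10 genes had a lower mean in the parthenogenetic lines, by 0.19 (Cldn3) to 2.24 (Krt19) log2 units. So did 5874 of the 12813 genes tested. The 10 genes were chosen on the values of these lines, so their shared direction describes the choice. FpB6CBA lay between the fertilised lines for 9 of the 10 genes, and for Krt8 it was 0.10 below R1, the lower of the fertilised lines. With limma on the 5 line means, 0 of the 10 and 0 of the 12813 genes tested (0%) were called, and an unadjusted p under 0.05 was reached by 0 of the 10 and by 606 of all genes. Leaving out NmB6D2 left R1 as the only fertilised line. That fit could not tell mode of origin from the line R1, and no conclusion is drawn from it.

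Of the other genes of these structures, 106 were listed in 4 groups, 102 had a probe set with a single symbol and 74 were tested, 57 of them above 3.86 on all arrays. A gene that passed only through the lines where it is high had to differ, and counts among the 57 are therefore added. The lists, like the 10 genes, were drawn up with earlier results of these data known. In OpB6D2 20 of the 74 fell and 2 rose against NmB6D2 (16 and 2 of the 57), and in FpB6D2 22 fell and 1 rose (18 and 1). R1 had 13 lower and 4 higher (11 and 4), and FpB6CBA 2 lower and 3 higher (1 and 2). From FpB6D2 to FpB6CBA 17 rose and 1 fell (13 and 1), and from OpB6D2 to FpB6D2 2 rose and 3 fell. Of all genes tested, 2.6% fell and 3.24% rose in OpB6D2, 5.53% and 5.22% in FpB6D2, and 5.49% and 7.39% in R1. In FpB6CBA 1.63% fell and 2.57% rose against NmB6D2. From FpB6D2 to FpB6CBA 6.03% rose and 5.14% fell, and from OpB6D2 to FpB6D2 1.31% and 2.44%. In R1 the share of the 74 that rose was thus below that of all genes. The median of the 74 was -0.51 in OpB6D2, -0.50 in FpB6D2, -0.26 in R1 and -0.08 in FpB6CBA against NmB6D2.

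None of the other keratins was called. Of 19 listed, 10 were tested, and by limma 0 passed in any of the 6 comparisons, with 2 to 5 a comparison at an unadjusted p under 0.05. They were chiefly keratins of stratified epithelia and hair, such as Krt5 and Krt14, and all but Krt42 had line means of 5.22 or less. Krt42, the exception, was at 7.71 in NmB6D2, 7.45 in R1 and 7.99 in FpB6CBA, and at 8.39 in OpB6D2 and 8.43 in FpB6D2, the lines in which Krt8 and Krt18 were low.

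Among 15 tested tight junction genes, 5 fell and 2 rose in OpB6D2, 4 fell and 1 rose in FpB6D2 and 3 fell and 2 rose in R1, all against NmB6D2. Among the 9 of them above 3.86 on all arrays, the counts were 3 and 2, 2 and 1, and 2 and 2. The shares of all genes tested were 2.6% and 3.24%, 5.53% and 5.22%, and 5.49% and 7.39%. Tjp3, a scaffold under the junction, followed the pattern of Cldn7, at 7.86 in NmB6D2 and 8.49 in FpB6CBA against 5.17, 5.75 and 5.48 in OpB6D2, FpB6D2 and R1. It was 6.44-fold lower in OpB6D2 than in NmB6D2 (-2.69 ± 0.09 SE, limma adjusted p = 5.36e-11). Cingulin (Cgn), which ties the junction to actin and myosin, fell by 2.07 log2 units in OpB6D2 and by 1.92 in FpB6D2 (limma adjusted p = 7.97e-09 and 8.4e-09), and its other probe set lay below 3.86. With the mean of both, Cgn in FpB6D2 was at -0.97 and not called. Occludin (Ocln) was at least 4.34-fold lower in FpB6D2 and in R1. Jam2, a junctional adhesion molecule that blood vessels also express, ran the other way, 3.49-fold higher in OpB6D2, 9.95-fold in FpB6D2, 4.38-fold in FpB6CBA and 3.70-fold in R1, so that NmB6D2 was its lowest line. NmB6D2 was also lowest by its other probe sets, but these differed in size. One gave log2 differences of 0.63, 0.69, 1.45 and 0.50 in that order. Another stood at 3.61 in NmB6D2 and 4.35 in FpB6CBA against 7.42 in OpB6D2, 8.40 in FpB6D2 and 8.10 in R1. Tjp1, the general scaffold, was not called in any comparison, with differences from NmB6D2 of -0.27 to -0.82.

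Among 20 tested genes of adherens junctions and desmosomes, 5 fell in OpB6D2, 6 in FpB6D2, 3 in R1 and 2 in FpB6CBA against NmB6D2, and only Dsp rose, in R1 and FpB6CBA. Among the 19 above 3.86 on all arrays, 4, 5, 2 and 1 fell in that order. Of all genes tested, 2.6%, 5.53%, 5.49% and 1.63% fell, while 7.39% rose in R1 and 2.57% in FpB6CBA. Desmoplakin (Dsp), which anchors keratin filaments at desmosomes, had its line means in the order of those of Krt19, with R1 highest, then FpB6CBA and NmB6D2, and with FpB6D2 above OpB6D2. It was at 6.85, 6.88 and 6.99 in NmB6D2, 9.59, 9.69 and 9.49 in R1 and 8.40, 8.63 and 8.03 in FpB6CBA. In OpB6D2 it was at 4.35, 4.53 and 4.20 and in FpB6D2 at 4.53, 4.82 and 4.83. It fell 5.83-fold in OpB6D2, rose 6.45-fold in R1 (limma adjusted p = 2.85e-09 and 6.04e-10) and was 12.4-fold higher in FpB6CBA than in FpB6D2. Its rise in FpB6CBA over NmB6D2 was 1.45, but 1.00 with the mean of its 3 probe sets and 0.56 with the brighter of its probe sets that are not marked as shared, neither of which was called. Plakophilin 2 (Pkp2), a desmosomal plaque protein, fell 2.38-fold in OpB6D2 and 4.28-fold in FpB6D2, and with the mean of its probe sets it was not called in OpB6D2 (-0.83). The cadherin Dsc2 was at least 2.91-fold lower in OpB6D2, FpB6D2 and R1 than in NmB6D2, and in FpB6CBA it fell by 1.10, which was lost with the mean of its probe sets (-0.79) and without the third FpB6CBA array (-0.93). Beta-catenin (Ctnnb1), which binds Cdh1, was not called, with differences from NmB6D2 of -0.09 to 0.25, and p120 catenin (Ctnnd1) fell in FpB6D2 and FpB6CBA (-1.39 and -1.14), the latter lost with the mean of its probe sets (-0.82).

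**Figure D4:**
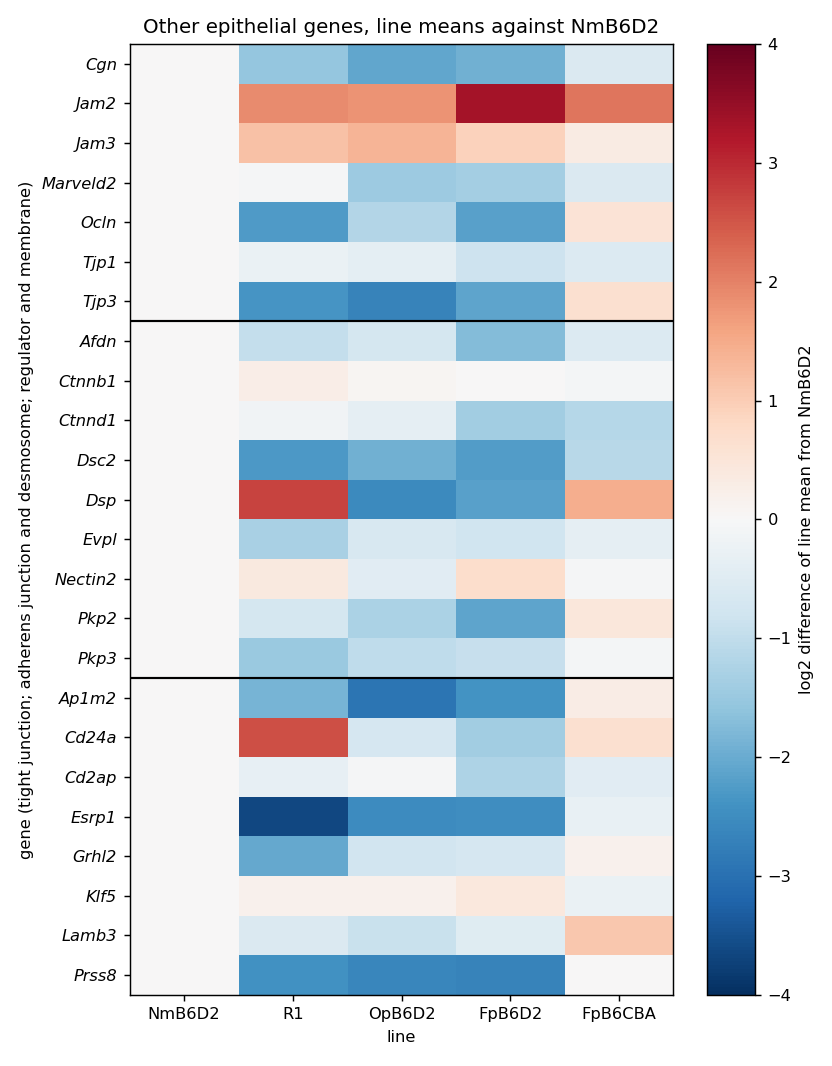
Colours give the log2 difference of each line mean from NmB6D2 for the 24 other epithelial genes named by rule (rows, in 3 groups divided by lines; columns are the 5 lines, and NmB6D2 is 0 by construction). Tjp3, Prss8 and Ap1m2 were low in R1, OpB6D2 and FpB6D2 and near 0 or above in FpB6CBA, Dsp was high in R1, and Jam2 was high in the 4 lines.

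Among 29 tested epithelial regulators and membrane genes, 10 fell and 0 rose in OpB6D2, 12 fell and 0 rose in FpB6D2, and 7 fell and 1 rose in R1 against NmB6D2. From FpB6D2 to FpB6CBA 10 rose. Among the 25 above 3.86 on all arrays, 9 fell in OpB6D2, 11 in FpB6D2 and 7 in R1, and 8 rose from FpB6D2 to FpB6CBA. Of all genes tested, 2.6%, 5.53% and 5.49% fell in these lines, 7.39% rose in R1, and 6.03% rose from FpB6D2 to FpB6CBA. Ap1m2, a sorting adaptor subunit of polarised epithelia, was 7.57-fold lower in OpB6D2 and 5.27-fold lower in FpB6D2 than in NmB6D2 (limma adjusted p = 1.3e-10 and 4.48e-10). Esrp1, an epithelial splicing factor, was lowest in R1, 12.4-fold below NmB6D2, and 5.73-fold and 5.59-fold below it in OpB6D2 and FpB6D2. The membrane protease Prss8 was 6.17-fold lower in OpB6D2, 6.33-fold in FpB6D2 and 5.41-fold in R1. Grhl2, a transcription factor that activates Cdh1 and claudin genes in epithelia, was called lower only in R1 (-2.06 ± 0.17 SE, limma adjusted p = 1.14e-07), with -0.77 in OpB6D2 and -0.66 in FpB6D2, and with the mean of its 4 probe sets it was not called in R1 (-0.74). Klf5 was not called in any comparison. Cd24a, a surface glycoprotein, rose 5.93-fold in R1 and fell 2.61-fold in FpB6D2.

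Of 21 tested markers of mesenchymal cells, 8 rose in OpB6D2, 4 in FpB6D2, 12 in R1 and 2 in FpB6CBA against NmB6D2. The shares of all genes tested that rose were 3.24%, 5.22%, 7.39% and 2.57% in that order. Among the 19 above 3.86 on all arrays, 7, 4, 11 and 2 rose. By limma 0 fell in each, with 0, 2, 1 and 2 lower at an unadjusted p under 0.05 in that order, and the median differences were 0.84, 0.26, 1.18 and 0.30. Zeb1, a repressor of Cdh1 and other epithelial genes, was at 5.67, 5.83 and 6.04 in NmB6D2 and 5.47, 5.23 and 4.99 in FpB6CBA. It was at 7.13, 7.01 and 7.13 in R1, 7.60, 7.53 and 7.56 in OpB6D2 and 7.55, 7.68 and 7.39 in FpB6D2. The lines high for Cldn7 were thus those low for Zeb1, without overlap between the 2 sets of arrays. Krt7, Cldn3 and Cldn4 had the same high lines as Cldn7, while Krt8, Krt18 and Krt19 were also high in R1, where Zeb1 was high. The part of Zeb1 and Snai1 in the values of these genes was not tested. Zeb1 was 3.28-fold higher in OpB6D2, 3.23-fold in FpB6D2 and 2.37-fold in R1 than in NmB6D2 (limma adjusted p = 3.02e-08, 1.74e-08 and 3.36e-07), and 4.95-fold lower in FpB6CBA than in FpB6D2. Only 1 of its 4 probe sets lay above 3.86, and with the mean of all 4 these differences were 0.46, 0.47, 0.35 and -0.64 and were not called.

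N-cadherin (Cdh2), which often replaces Cdh1 in mesenchymal cells, was 18.9-fold higher in R1 and 2.68-fold higher in OpB6D2 than in NmB6D2 (limma adjusted p = 3.71e-11 and 5.67e-06). The intermediate filament gene Vim rose 4.49-fold in R1 and 2.42-fold in OpB6D2 and, at 1.70-fold, was not called in FpB6D2. Snai1, the other E-box repressor, was called only in R1 (4.17-fold higher). It was higher by less than 2-fold in FpB6CBA (0.96), FpB6D2 (0.82) and OpB6D2 (0.42) than in NmB6D2. Zeb2 was called in no comparison and was below 3.86 in all lines but R1. The mean of the 21 markers was 6.42 to 6.55 on the NmB6D2 arrays and 7.71 to 7.76 on those of R1. It was 7.04 to 7.44 in OpB6D2, 6.78 to 6.96 in FpB6D2 and 6.69 to 6.93 in FpB6CBA. R1, with the highest mean, kept Krt8, Krt18 and Krt19 high, and the part of mesenchymal or feeder cells in the values of the 10 genes was not tested.

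**Figure D5:**
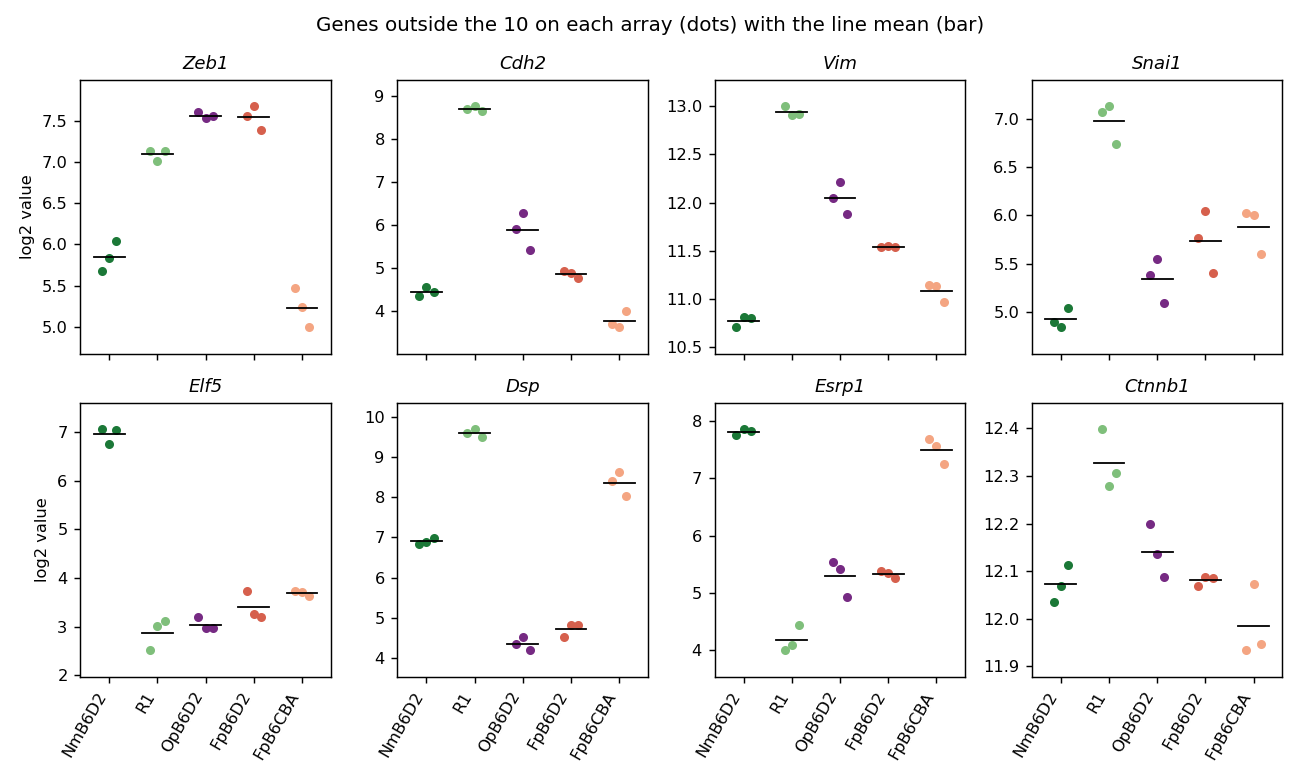
The log2 value (vertical axis, a separate scale in each panel) of 8 genes outside the 10 on each array (dots, 3 per line) with the line mean (bar). Zeb1 was lower in NmB6D2 and FpB6CBA than in the other 3 lines, Esrp1 was the reverse, Cdh2, Vim and Snai1 were highest in R1, Elf5 was high in NmB6D2 alone, and the Ctnnb1 panel spans less than 1 unit.

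Markers of the extraembryonic lineages that use simple keratins also differed between the lines. Of 12 tested trophectoderm markers, 4 fell in OpB6D2, 3 in FpB6D2, 2 in FpB6CBA and 5 in R1 against NmB6D2, and 1 rose in each of the last 3. Of all genes tested, 2.6%, 5.53%, 1.63% and 5.49% fell in that order, and 5.22%, 2.57% and 7.39% rose in the last 3. Among the 9 above 3.86 on all arrays, which leave out Elf5, 3, 2, 1 and 4 fell in that order. The markers that rose were Tead4 in FpB6D2 (3.06-fold), Ascl2 in FpB6CBA (2.49-fold) and Eomes in R1 (6.01-fold). Elf5, a trophoblast transcription factor, was at 6.95 in NmB6D2 and below 3.86 in the other 4 lines, at least 8.51-fold lower, including R1 and FpB6CBA, in which Krt8 and Krt18 were high. Its other probe set was weaker, at 4.54 in NmB6D2 and 2.80 to 3.15 in the other 4 lines, so its lower bound is smaller. Plet1, a surface protein of trophoblast, fell 5.17-fold in OpB6D2 and 2.50-fold in FpB6D2, the latter lost with the mean of its probe sets (-0.81). The list's mean was 6.23 to 6.30 on the NmB6D2 arrays, 5.84 to 5.88 in FpB6CBA, 5.69 to 5.74 in FpB6D2, 5.28 to 5.44 in R1 and 5.26 to 5.33 in OpB6D2. Cdx2 was at 4.25 or less in each line.

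Of 17 tested endoderm markers, 12 rose in FpB6CBA against NmB6D2 and 0 fell by limma (17 higher and 0 lower at an unadjusted p under 0.05), and against FpB6D2 12 rose and 1 fell. Among the 13 above 3.86 on all arrays, 10 rose against NmB6D2 and 9 against FpB6D2. Of all genes tested, 2.57% rose and 1.63% fell in FpB6CBA against NmB6D2, and 6.03% and 5.14% against FpB6D2. For R1 against NmB6D2 these shares were 7.39% and 5.49%. In R1, another line high for Krt8, Krt18 and Krt19, 5 of the 17 rose and 3 fell against NmB6D2 (3 and 2 of the 13), with Gata4 7.42-fold and Sox17 3.84-fold higher and Amn 3.14-fold and Dab2 2.30-fold lower. Their mean was 7.42 to 7.64 on the FpB6CBA arrays and 6.02 to 6.44 on all others, and Foxa2 was below 3.86 in NmB6D2, OpB6D2 and FpB6D2. In FpB6CBA these markers were thus high together with the 10 genes, while in NmB6D2, where all of the 10 but Krt19 had the higher mean, they were not. Of the 10 pluripotent cell markers, Nanog and Klf4 fell 3.01-fold and 3.87-fold from FpB6D2 to FpB6CBA. The other 8 were not called, among them Tdgf1 and Utf1 with differences of 0.49 each. Against NmB6D2, Klf4 was called higher in OpB6D2 (2.59-fold), FpB6D2 (2.84-fold) and R1 (2.29-fold). Nanog was higher by less than 2-fold in these lines (0.86, 0.97 and 0.55). In R1 Zfp42 was also called higher (2.67) and Utf1 lower (-1.57). For FpB6CBA against NmB6D2 0 of the 10 markers were called. The part of endoderm-like or trophoblast-like cells in the values of the 10 genes was not tested.

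The genes with the most similar course over the 15 arrays were found for 4 of the 10 genes among tested genes whose line means spanned at least 1 log2 unit, and the correlations are a description. Krt18 was followed most closely by Krt8 (0.996), Zkscan17 (0.974), Rras (0.970), Stx3 (0.964) and Cadm4 (0.961). Cldn7 was followed by Phf10 (0.996), the protease Prss8 (0.989), Ethe1 (0.987), Galnt3 (0.985) and Ero1a (0.982). Galnt3, a glycosyltransferase, was at 6.17 in NmB6D2 and 6.36 in FpB6CBA and below 3.86 in the other 3 lines. Cldn6 was followed by the glycolytic gene Tpi1 (0.991), Arsa (0.986), Dusp22 (0.983), Pfkl (0.981), another glycolytic gene, and Tmc4 (0.975). Cdh1 was followed by Grb7 (0.987), Smagp (0.985), Tsc22d4 (0.977), Slc25a30 (0.975) and Gga2 (0.974). The 10 genes were not each other's closest company throughout: Krt19 correlated with Cldn3 at 0.333, and Epcam ranked 815 of 4210 genes in likeness to Krt18.

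Genes beside the 10 on their chromosomes, were taken from the RefSeq annotation of GRCm38.p6. Krt8 and Krt18, the type II and type I partners, are neighbours on chromosome 15, as Cldn3 and Cldn4 are on chromosome 5. Of the other protein-coding neighbours within the nearest 2 on each side, 19 were tested and 4 (21.1%) were called, each in a single comparison, where 25.6% of all genes tested were called in at least 1. Tns2 beside Krt18 fell in FpB6D2 (-1.08), Abhd11 beside Cldn3 and Tango6 beside Cdh1 fell in R1 (-1.57 and -1.04), and Elp5 beside Cldn7 rose in FpB6D2 (1.02), all against NmB6D2 by limma. Krt78 next to Krt8, Cldn9 next to Cldn6 and the cadherin gene Cdh3 next to Cdh1 were not called in any of the 6 comparisons. Cldn9 was weak, with means of 4.43 in NmB6D2 and 4.30 in FpB6CBA. It lay below 3.86 in OpB6D2, FpB6D2 and R1, at least 1.48-fold under NmB6D2.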

How the data were processed

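Gene expression was measured in 5 mouse ES cell lines on 3 arrays each. The deposited series table holds log2 values that the authors made with affy and RMA, per the submitters' processing notes. The log base is read from the values, which run from 1.99 to 14.0. Background correction and quantile normalisation are part of RMA, which can shrink differences of weak probe sets. Scanner intensities were not used here, and the number of arrays limits the precision.

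Of the probe sets, 34945 had 1 gene symbol in the array annotation, 932 several and 9160 none, and 64 control probe sets were left out. Symbols were updated by gene ID through RefSeq. Genes were filtered and represented as described above (3.86 on at least 3 arrays). One limma fit over 15 arrays gave a mean per line and 6 comparisons, with Benjamini-Hochberg adjustment over 12813 genes (R 4.3.3, limma 3.58.1). The fit was tested on simulated data. Origin was fitted on the 5 line means.

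The 10 genes and all lists were chosen with earlier results of these data known. The rule for naming took the 10 and up to 3 called each way per comparison from each list of epithelial, mesenchymal and trophectoderm genes. It also took 10 fixed genes (among them Zeb1 and Dsp) and the 5 genes most alike to Krt18, Cldn6, Cldn7 and Cdh1. Not all genes taken by the rule are named in the text. Foxa2, Gata4, Sox17, Amn, Dab2, Cdx2, Nanog, Klf4, Zfp42, Tdgf1, Utf1, Krt5, Krt14, Krt42 and the neighbouring genes are named outside that rule, after their values were seen. A fold against a line mean under 3.86 is given as a lower bound, with 3.86 in its place. Alternatives were another filter, probe set rule, scaling, variance model, threshold, array weights, the title number as a block, and each array or line left out. Titles number 13 of the 15 arrays. In 12 same-number pairs from different lines, deviations from the line mean correlated at -0.18 to 0.13, so the numbers were not taken to pair arrays.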

Additional observations from a re-analysis of the deposited data

How the results depend on the processing

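For the 10 genes, 60 differences were recomputed under 27 alternatives, in 1080 values. No called difference reversed, 7 lost their call and 13 gained one, while 1060 kept their side of the threshold. Changes of sign among differences that were not called were not counted. Another filter, variance model or threshold leaves the difference of a gene itself unchanged, so these alternatives could not reverse it. With no minimum fold, 6370, 7729, 6444, 8058, 6663 and 7725 genes passed the adjusted p for OpB6D2, FpB6D2, FpB6CBA and R1 against NmB6D2, FpB6D2 against OpB6D2 and FpB6CBA against FpB6D2. Of the other epithelial genes 52, 55, 43, 54, 31 and 53 then passed in the same order, and of the 10 genes 7 passed for FpB6CBA against NmB6D2, a count that the choice of these genes on the same values bears on. With the mean of all probe sets, 299 genes and 1 other epithelial gene were called for FpB6D2 against OpB6D2, and 2 other epithelial genes for FpB6CBA against NmB6D2. Without the line NmB6D2, 66 genes were called between parthenogenetic and fertilised lines. R1 was then the only fertilised line, so this count cannot tell mode of origin from the line R1. With the title number as a replicate block, which takes 13 arrays, 10, 10, 0, 7, 4 and 10 of the 10 genes were called in that order, Krt19 being called in R1 (1.04) and no longer in FpB6D2 against OpB6D2 (0.87), and 797 genes were called for OpB6D2 against NmB6D2. These numbers only name arrays: 4 of the 13 correlated best with an array of their own number. Leaving out each array gave 749 to 775, 1353 to 1383, 526 to 570, 1640 to 1681, 469 to 511 and 1417 to 1470 genes called.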
